A study of Mus musculus with 36 samples.

Results

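Cytosolic ribosomal protein genes were followed across the 8 annotated epithelial cell types of mouse small intestine in single-cell RNA counts. The members are the genes whose symbol is Rpl or Rps followed by digits, with an optional final a, x or l. By this rule 77 of 27998 listed genes belong, 47 with an Rpl symbol (large subunit) and 30 with an Rps symbol (small subunit). The rule leaves out Rplp0, Rplp1, Rplp2, Rpsa, Fau and the like, pseudogenes marked -ps, and the S6 kinase genes.

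The data are 2 libraries of dissociated small intestine cells from 12-month-old wild-type C57BL6/2J mice, prepared with the 10x Genomics Chromium method, and called here library 1 (set1) and library 2 (set2). All cells share this genotype, strain and age, and no treatment is named, so the comparisons are between cell types. The unit is the UMI, a tag that counts captured RNA molecules. Whether the libraries came from different animals is not stated in the labels. All p-values therefore rest on how these 2 libraries varied, which may be technical variation.

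Ribosomes of the cytosol are built from a small subunit, which reads the messenger RNA, and a large subunit, which joins amino acids. Their protein genes are transcribed at high and balanced rates, and excess proteins that find no subunit are degraded. Many of their messenger RNAs begin with a stretch of pyrimidines, the 5′ terminal oligopyrimidine motif, through which mTOR signalling controls their translation. In the intestinal crypt, stem cells and dividing progenitors are known for active ribosome production, while enterocytes, goblet cells and Paneth cells carry the specialised products of the tissue.

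The authors' annotation covers 2614 cells, 1144 in library 1 and 1470 in library 2, with 23947568 and 47974261 UMIs. No barcode was shared between the libraries, and no doublets were removed here. Median depth per cell was 16547 and 24851 UMIs, and mitochondrially encoded genes held 4.93% and 9.27% of UMIs. The smallest type was tuft, with 24 and 23 cells. The marker lists of ISC, progenitor, goblet, Paneth, EEC, tuft and enterocyte each summed highest in the type of that name in both libraries. The secretory progenitor list ranked 3rd and 4th in the type so named and highest in EEC, so that label is used as the authors' name only. Leukocyte markers were highest in tuft, at a sum of 376 and 236 CPM, the UMIs of a gene scaled to 1000000 UMIs per type and library. The red blood cell genes reached 1869 CPM in library 1 progenitors and 0.0824 CPM in library 2 progenitors, and their part in any result was not tested. The types come from the authors' clustering of these same cells, so a difference between types describes cells already separated by expression.

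Start-site sequences are shown first for members that lay at either end of the differences described below. RefSeq promoter entries (GRCm38.p6) existed for 57 of the 77 members, with 69 start sites. The build behind the deposited single-cell counts is not stated in their files. The labels list mm9 without saying for which data, so the coordinates belong to the RefSeq sequences alone. Each line runs from 10 bases before to 20 bases after the start, and capitals mark a run of at least 6 letters C or T that begins with C and overlaps the 10 bases on either side of the start. A run may begin before the printed stretch, as that of Rps27l does, at 12 bases before the start. Rpl12, Rpl15 and Rpl14, large-subunit proteins, were among the members with the largest stem cell excess. Rpl41 and Rpl10, also of the large subunit, were among those with the smallest. So was Rpl38, whose window is not shown and holds a run of 8 letters that begins at the start. Rps27 and Rps27l are paralogs in the small subunit family, and Rps27l had the lowest estimate of all. RefSeq gives a second start for Rps27l, at chr9:66946403-66946432, which holds no such run and is not shown.
Rpl12, chr2:32961702-32961731, plus strand: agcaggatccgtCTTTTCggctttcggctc
Rpl15, chr14:18270967-18270996, minus strand: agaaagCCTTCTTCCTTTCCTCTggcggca
Rpl14, chr9:120571507-120571536, plus strand: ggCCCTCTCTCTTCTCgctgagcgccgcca
Rpl41, chr10:128549149-128549178, minus strand: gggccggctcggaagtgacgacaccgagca
Rpl10, chrX:74270806-74270835, plus strand: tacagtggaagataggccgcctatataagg
Rps27, chr3:90213629-90213658, minus strand: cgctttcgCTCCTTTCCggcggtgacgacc
Rps27l, chr9:66946076-66946105, plus strand: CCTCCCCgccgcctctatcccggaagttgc

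Such a run was present at 36 of the 69 member starts (52.2%) and at 22.8% of 32782 other starts. On the opposite strand the same search found 5 of 69 (7.25%) and 25.9% of the other starts. A match describes the letters of the window and not a site in use. Among members with and without a run the median difference between stem cells and enterocytes, described below, was 0.72 (34 genes) and 0.66 (20 genes) on the log2 scale.

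Rps27 and Rps27l are the pair whose members behaved most differently among the paralogs below, so their coding sequences are shown. The sequences compare this pair alone. How reads were assigned among these genes and other copies was not tested. Both have 255 bases in 4 coding exons (RefSeq, GRCm38.p6; Rps27 within chr3:90212725-90213615 on the minus strand, Rps27l within chr9:66946175-66949357 on the plus strand). Capitals mark the 61 positions at which the aligned sequences differ, which leaves 76.1% identity and no identical run longer than 11 bases.
Rps27: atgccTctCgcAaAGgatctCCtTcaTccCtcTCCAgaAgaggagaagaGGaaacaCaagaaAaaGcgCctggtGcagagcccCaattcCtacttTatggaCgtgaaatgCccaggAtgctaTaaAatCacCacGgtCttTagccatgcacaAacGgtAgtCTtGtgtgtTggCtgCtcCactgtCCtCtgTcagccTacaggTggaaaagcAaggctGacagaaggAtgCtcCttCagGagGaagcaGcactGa
Rps27l: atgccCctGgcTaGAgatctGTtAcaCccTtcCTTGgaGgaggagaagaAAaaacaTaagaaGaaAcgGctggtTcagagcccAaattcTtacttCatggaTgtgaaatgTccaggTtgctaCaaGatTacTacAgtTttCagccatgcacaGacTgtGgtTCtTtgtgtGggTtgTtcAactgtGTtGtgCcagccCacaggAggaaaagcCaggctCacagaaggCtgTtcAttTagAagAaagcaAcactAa

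Ribosomal protein genes took the largest share of UMIs in intestinal stem cells (ISC) and the smallest in Paneth cells, in both libraries. The summed members held 31.2% of ISC UMIs in library 1 and 25.2% in library 2. Progenitors followed at 27.5% and 20.3%, then secretory progenitors at 26.7% and 18.4%. These 3 types were the highest in both libraries. Enteroendocrine cells (EEC) held 23.4% and 15.0%, and tuft cells 21.1% and 18.1%. Goblet cells held 20.2% and 14.8%, enterocytes 15.1% and 13.6%, and Paneth cells 2.89% and 5.85%. The order of the types was the same in both libraries except that EEC stood above tuft in library 1 and below it in library 2. Compared within a library, ISC exceeded progenitors by 3.71 and 4.89 percentage points, a mean of 4.30 ± 0.83 (SD, n = 2 libraries). Progenitors exceeded secretory progenitors by 1.33 ± 0.82, goblet cells exceeded enterocytes by 3.14 ± 2.70, and enterocytes exceeded Paneth cells by 9.98 ± 3.19. For secretory progenitors over tuft (2.95 ± 3.83), tuft over EEC (0.39 ± 3.88) and EEC over goblet (1.71 ± 2.17) the difference was smaller than its spread. Every type but Paneth had the higher share in library 1. The ISC share was 2.06 times that of enterocytes in library 1 and 1.85 times in library 2. Against Paneth cells it was 10.8 and 4.30 times as high. No test was made on these shares, since only 2 libraries exist.

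**Figure D1:**
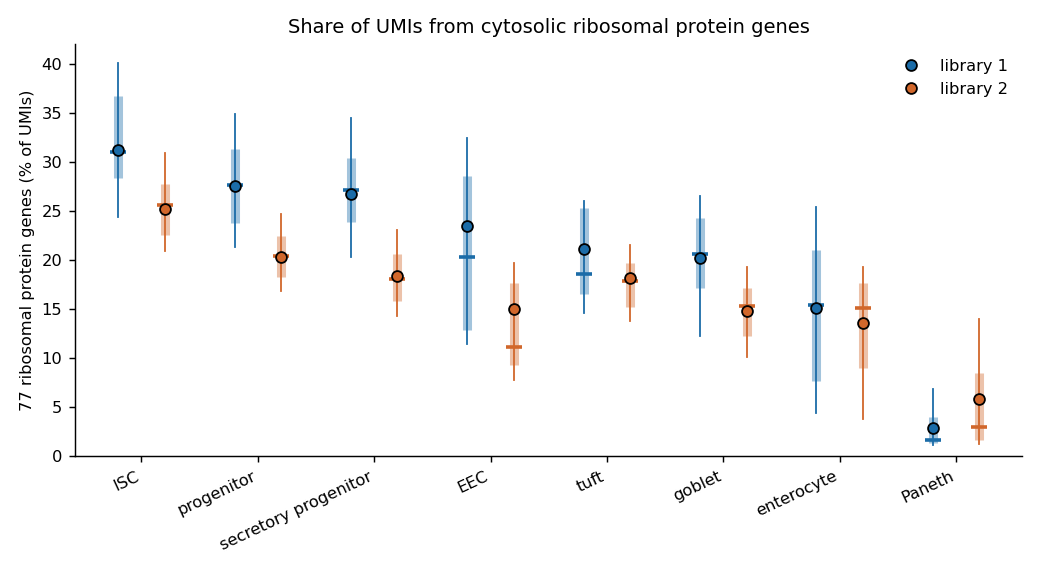
Share of UMIs from the 77 members (vertical axis, percent) in each cell type (horizontal axis), library 1 in blue and library 2 in orange. Circles are the share of all UMIs of a type, dashes the median cell, thick bars the middle 50% of cells and thin lines the 10th to 90th percentile; ISC lie highest at 31.2% and 25.2% and Paneth lowest at 2.89% and 5.85%.

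Both subunits contributed in fixed proportion. The Rps genes held between 43.2 and 45.0 of every 100 member UMIs in all 8 types of both libraries. The low Paneth share went with a few secreted products. The 10 other genes with the highest share in any 1 type were taken, 8 of them with their peak in Paneth cells. They held 72.2% and 58.0% of Paneth UMIs, and 0.43% and 0.28% of enterocyte UMIs. Among them Defa24, an antimicrobial alpha-defensin, held 26.8% of Paneth UMIs as the mean of the libraries. Without those 10 genes the Paneth share of members rose to 10.4% in library 1 and 13.9% in library 2. Enterocytes then held 15.2% and 13.6%, so Paneth cells were lowest in library 1 only. The choice of genes by their peak fixed the Paneth rise in advance, so only its size is described. In absolute terms, a Paneth cell held a mean of 2019 and 3504 member UMIs and an ISC 4827 and 4562. An enterocyte held 2379 and 4264, and a secretory progenitor 5391 and 8275. These counts depend on depth, which in Paneth cells was a median of 73555 and 67245 UMIs per cell against 15150 and 16514 in ISC.

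Cells within a type also varied. In enterocytes the middle 80% of cells spanned 4.43% to 25.3% in library 1 and 3.76% to 19.3% in library 2. Across enterocytes the member share fell as the enterocyte markers took more UMIs, with Spearman's rho of -0.92 over 406 cells and -0.82 over 488 cells. It was higher in cells where 36 ribosome biogenesis genes held a larger share of UMIs, with rho of 0.80 and 0.86. In goblet cells the rho with goblet markers was -0.78 and -0.81, and in Paneth cells with Paneth markers -0.66 and -0.75. With their own markers EEC gave -0.64 and -0.58, and tuft cells -0.70 and -0.74. In ISC the sign was the other way, at 0.53 over 78 cells and 0.55 over 80 cells. Progenitors, at 0.02 and 0.10, and secretory progenitors, at 0.12 and 0.16, were not negative either. The ISC rho with biogenesis genes was -0.10 and -0.07, and that with total UMIs of the cell -0.46 and -0.36. These are descriptions: the points of each share a library, and both quantities share the cell's UMI total as denominator. The type's own markers held 5.49% and 2.43% of enterocyte UMIs, 17.2% and 16.7% of goblet UMIs, and 44.5% and 40.6% of Paneth UMIs. The part of the shared denominator in these values was not tested. Enterocyte shares also fell with the mitochondrial share (rho -0.35 and -0.47), whose part was not tested.

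For single members, UMIs were summed per library and type and fitted for all genes with edgeR's quasi-likelihood test, with the library as a block and TMM scaling, which sets the typical gene to no change. Values below are log2 differences with their standard error (SE), called at a Benjamini-Hochberg adjusted p under 0.05 over 11610 genes tested. Of the 77 members 74 passed the filter on low counts. The other three, Rpl10l, Rpl3l and Rpl39l, are copies known mainly from testis or muscle, and had 8, 4 and 2 UMIs in all annotated cells. Across the 8 types, 73 of 74 members differed, where 78.6% of all genes did. The exception was Rps12, a small-subunit protein, at an edgeR adjusted p of 0.36 and a mean of 10.2 CPM over types.

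Against enterocytes, the absorptive cells of the villus, the rise in ISC was close to uniform over the ribosome. In ISC 67 of 74 members were higher and none lower, where 22.5% of all genes were called higher. The median was 0.68 over members and -0.08 over all genes tested. Large-subunit genes gave 40 of 44 with a median of 0.66, and small-subunit genes 27 of 30 with a median of 0.72. In each library taken alone, 72 of 74 members were higher in ISC in both. By total UMIs without TMM 41 members were called, where 22.9% of all genes were, and with no replicate block 3 were, where 14.4% of all genes were. Members differed between the libraries, as described below.

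The largest differences were in large-subunit genes. Rpl12, a protein of the stalk base where elongation factors bind, stood at 2791 and 5102 CPM in ISC of libraries 1 and 2 and at 995 and 2043 CPM in enterocytes. Both ISC values were above both enterocyte values, although library 2 was higher than library 1 in each type. Its log2 difference was 1.11 (SE 0.20, edgeR adjusted p = 5.7e-05). Rpl3, which lies near the catalytic centre, had 4944 and 4511 CPM in ISC against 1657 and 1942 CPM in enterocytes, with no overlap. Its difference was 1.10 (SE 0.18, edgeR adjusted p = 2.3e-05). Rpl6 had 756 and 403 CPM in ISC and 283 and 186 CPM in enterocytes, again without overlap, for a difference of 0.97 (SE 0.16). Rpl6l (1.01), Rpl15 (0.93) and Rpl14 (0.91) completed the 6 largest. GENCODE lists Rpl6l as a processed pseudogene, and 76.4% of its 50-base words occur in other genes of that annotation. Its counts could be split with Rpl6 and are uncertain.

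At the other end, Rps27l was the one member with a lower estimate in ISC. It had 1379 and 899 CPM in ISC and 1214 and 838 CPM in enterocytes, so the unscaled values were slightly higher in ISC and the TMM-scaled difference was -0.15 (SE 0.16, edgeR adjusted p = 0.46). The groups overlapped. Rps27l is a paralog of Rps27 known as a p53 target. Rpl10, which sits near the tRNA sites of the large subunit, had a difference of 0.09 (SE 0.20, edgeR adjusted p = 0.74), with estimates of 0.41 in library 1 and -0.68 in library 2. Rpl29 (0.35), Rps29 (0.35), Rpl38 (0.36) and Rpl41 (0.38) also missed the threshold. Rps29, Rpl38 and Rpl41 encode some of the shortest ribosomal proteins.

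**Figure D2:**
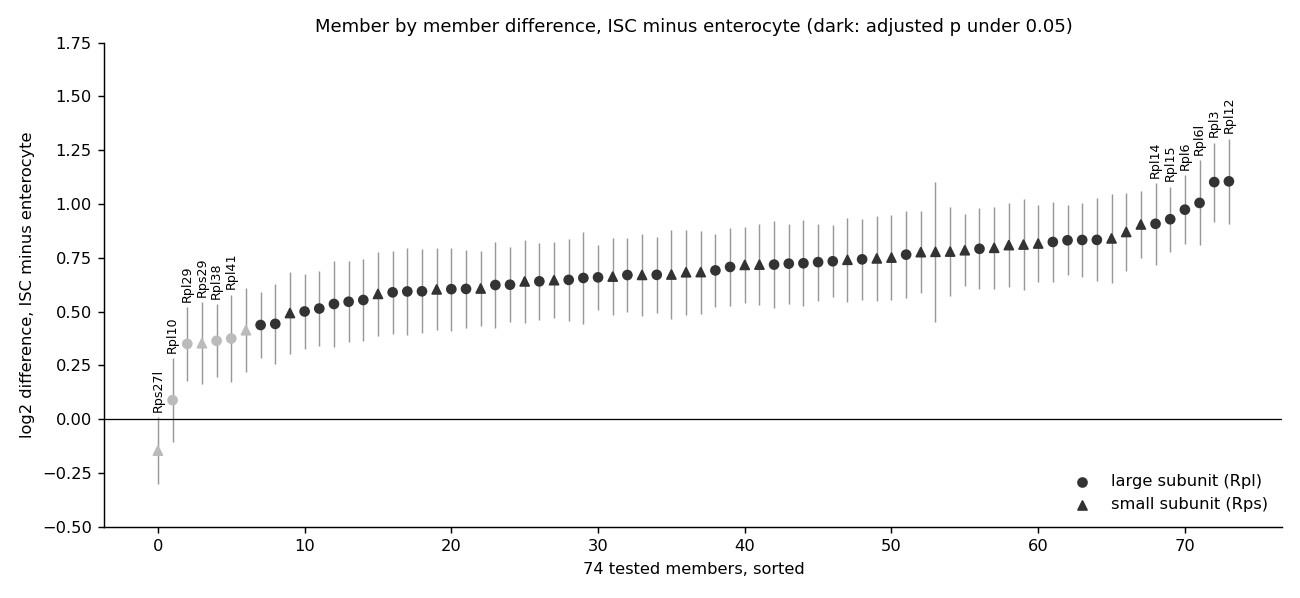
Log2 difference ISC minus enterocyte (vertical axis, TMM-scaled, bars are SE) for the 74 tested members in order of size (horizontal axis), circles for large and triangles for small subunit genes. Dark symbols passed an adjusted p under 0.05: 67 members, from Rpl12 at 1.11 downwards, while Rps27l at -0.15 lies at the low end.

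Against the mean of the other 7 types, 69 of 74 members were higher in ISC and none lower, where 13.1% of all genes were called higher. The median was 0.59. Rpl3 (0.89, SE 0.13), Rpl6l (0.83, SE 0.15) and Rps26 (0.79, SE 0.12) led. Rps26 is a small-subunit protein at the messenger RNA exit. Against Paneth cells, the neighbours of stem cells at the crypt base, 58 of 74 members were higher in ISC and none lower, where 14% of all genes were called higher. Rpl6l (1.03, SE 0.22), Rpl7a (1.03, SE 0.16) and Rps26 (0.99, SE 0.17) were the largest differences. In both comparisons the Rpl6l value is uncertain, as above. Rpl7a, a large-subunit protein, had 748 and 590 CPM in ISC against 50.3 and 109 CPM in Paneth cells. By total UMIs alone all 74 members were called higher in ISC, where 77.4% of all genes were, with a median of 2.68 beside 2.10 over all genes.

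Progenitors are the dividing daughters of stem cells. Against ISC no member passed the edgeR test, where 1.98% of all genes were called lower in progenitors. The median was -0.29, 69 of 74 members were lower in progenitors in both libraries, and 18 had an unadjusted p under 0.05. DESeq2 called 24 members lower, where 3.06% of all genes were. Against the other types 12 members were higher in progenitors, where 23.7% of all genes were, so the share of members called was below the background on this scale. The median was 0.28 over members and 0.12 over all genes, and 71 of 74 members were higher in both libraries. Scaled by UMIs of other nuclear genes, 37 of 74 members were higher, where 41.5% of all genes were, and DESeq2 called none. Among the 12 members called under TMM scaling was Rps2, a small-subunit protein (0.49, SE 0.15). In secretory progenitors no member was called by edgeR, none had an unadjusted p under 0.05 and DESeq2 called none, where 14.5% of all genes were called. Goblet cells had 2 members higher, where 19.5% of genes were: Rpl10 (0.69, SE 0.14) and Rpl38 (0.36, SE 0.12).

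EEC, the hormone cells, showed the members low on the TMM scale. In EEC 58 of 74 were lower and none higher, where 14.2% of all genes were called lower, with a median of -0.46. Rps27l (-0.87, SE 0.13), Rpl12 (-0.62, SE 0.16) and Rps2 (-0.62, SE 0.17) were lowest. This direction depended on scaling: by total UMIs alone the EEC median was 0.22 and no member was called, while all genes tested shifted to a median of 0.63. In tuft cells, the chemosensory type, 3 members were lower, where 4.01% of all genes were: Rps2 (-0.52, SE 0.17), Rps27l (-0.45, SE 0.13) and Rpl38 (-0.43, SE 0.14). The tuft median of -0.29 became 0.26 by total UMIs, with no member called.

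Enterocytes against the other types had 6 members lower, where 27.3% of all genes were, and 1 higher, where 33.6% were. The count of lower members depended on the tool and the types: DESeq2 called 40 lower, where 30.5% of all genes were, and with types of at least 50 cells 45 were lower, where 30.2% of genes were. Rpl12 (-0.48, SE 0.15), Rpl3 (-0.37, SE 0.14) and Rpl6 (-0.37, SE 0.12) were lowest, and Rps27l (0.33, SE 0.11) was the one higher. Paneth cells had 3 members lower, where 14% of genes were, and 1 higher, where 12.1% were. Rpl7a (-0.46, SE 0.12) and Rpl29 (-0.40, SE 0.14) were among the lower and Rps27l (0.53, SE 0.11) was the one higher. By total UMIs alone all 74 tested members were lower in Paneth cells, where 85.2% of all genes were, with a median of -2.20, beside a median of -2.14 over all genes. Rps27l itself then stood at -1.56. Members in Paneth cells thus moved with the typical gene on both scales.

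**Figure D3:**
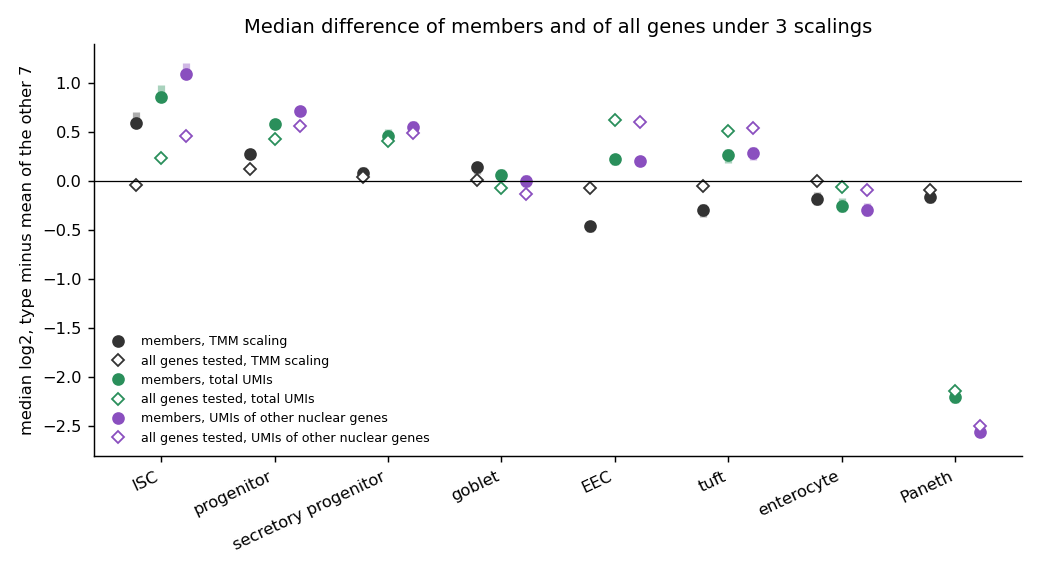
Median log2 difference of each type against the mean of the other 7 (vertical axis) for the 74 tested members (filled circles, bars are the middle 50% of members) and for all 11610 genes tested (open diamonds), under TMM scaling (black), total UMIs (green) and UMIs of genes neither members nor mitochondrial (purple). ISC members lie above the median of all genes in each of these scalings, and the Paneth medians move from -0.16 to -2.20 with that of all genes.

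The makeup of the ribosomal protein pool was next examined, with each member taken relative to the sum of all members. This scaling was added after the data were seen. Few members departed from the pool. In the test over the 8 types only Rps27l, Rpl10 and Rpl41 passed, where 80% of all genes did. That gap is largely set by the scaling, which centres the members near 0 and shifts other genes. For ISC against the other types the median was 0.0051 over members and -0.64 over all genes. Within a library, 2 types differed in 1.76% to 5.75% of the pool, counted as the summed excess of the members that were higher in one of them. The least different pair was progenitor and EEC in library 1 (2.60%) and progenitor and secretory progenitor in library 2 (1.76%). The most different was ISC and Paneth in library 1 (5.75%) and Paneth and EEC in library 2 (4.70%), so neither extreme was the same pair in both.

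Rps27l was the clearest departure. It made 0.44% and 0.36% of member UMIs in ISC, and 0.54% and 0.47% in progenitors. In enterocytes it rose to 0.80% and 0.62%, and in Paneth cells to 0.94% and 0.63%. EEC held 0.41% and 0.40%, tuft 0.49% and 0.45%, goblet 0.53% and 0.50%, and secretory progenitors 0.46% and 0.47%. Enterocytes and Paneth cells were therefore above the other 6 types in both libraries. Relative to the pool Rps27l was lower in ISC than in enterocytes by a log2 difference of -0.83 (SE 0.17, edgeR adjusted p = 0.00032) and lower than in Paneth cells by -0.97 (SE 0.17, edgeR adjusted p = 0.00027). Between ISC and enterocytes 4 of 74 members passed, where 57.6% of all genes did, a gap again largely set by the scaling. The others were Rpl12 (0.44, SE 0.15) and Rpl3 (0.43, SE 0.15), higher in ISC, and Rpl10 (-0.62, SE 0.25), lower.

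Rpl10 took 0.0321% of member UMIs in ISC of library 1 and 0.00521% in library 2, and 0.0412% and 0.0126% in enterocytes. Its 2338 UMIs in all make it a sparse member, and library 1 exceeded library 2 in every type. Rpl41, a very short peptide of the large subunit, held 3.30% and 1.64% of the pool in ISC and 4.71% and 2.32% in Paneth cells. ISC had the lowest Rpl41 proportion of the 8 types in each library. Relative to the pool Rpl41 was lower in ISC than in the other types by -0.36 (SE 0.11, edgeR adjusted p = 0.011).

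**Figure D4:**
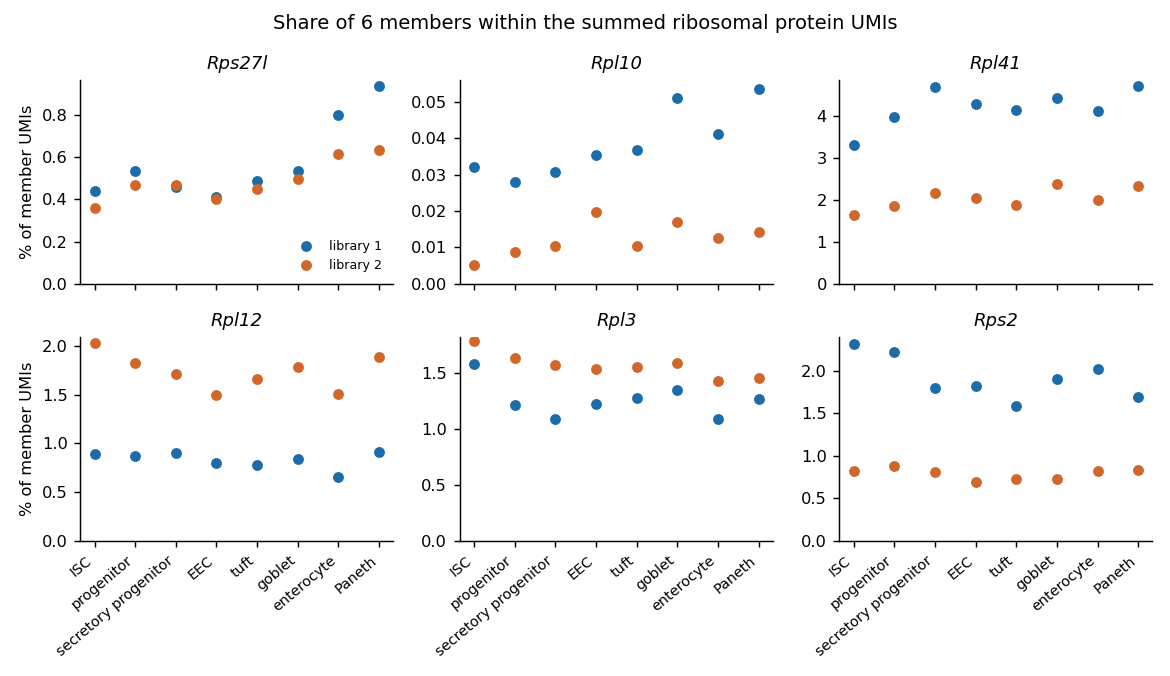
Percent of the summed member UMIs (vertical axis, from 0) taken by 6 members in each cell type (horizontal axis), library 1 in blue and library 2 in orange, 1 point per library. Rps27l is highest in enterocytes (0.80% and 0.62%) and Paneth cells (0.94% and 0.63%), and for Rpl10, Rpl41, Rpl12 and Rps2 the values of the libraries do not overlap.

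The libraries differed in the pool far more than the types did. Within a type, libraries 1 and 2 differed in 17.0% to 19.6% of the pool. Of the 74 members with UMIs in each type of both libraries, 20 differed by over 2-fold in their mean proportion and 44 by under 1.5-fold. Rps18, a small-subunit head protein, had 2068 CPM in ISC of library 1 and 143 CPM in ISC of library 2. In enterocytes it had 857 and 66.5 CPM. Its proportion was 10.8 times as high in library 1 as the mean over types, and the log2 ratio ran from 2.97 to 3.72 across types, so no type went the other way. Rpl27 was 10.1 times and Rps28 7.36 times as high. Rpl6l followed at 5.24 times, Rps26 and Rpl21 at 4.20 and 4.18 times, and Rps29 at 3.62 times. Rpl9, in the other direction, had 120 and 269 CPM in ISC, and a proportion in library 1 of 0.363 times that in library 2. Rpl30, Rps10, Rps20 and Rpl12 were also under 0.5 times.

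**Figure D5:**
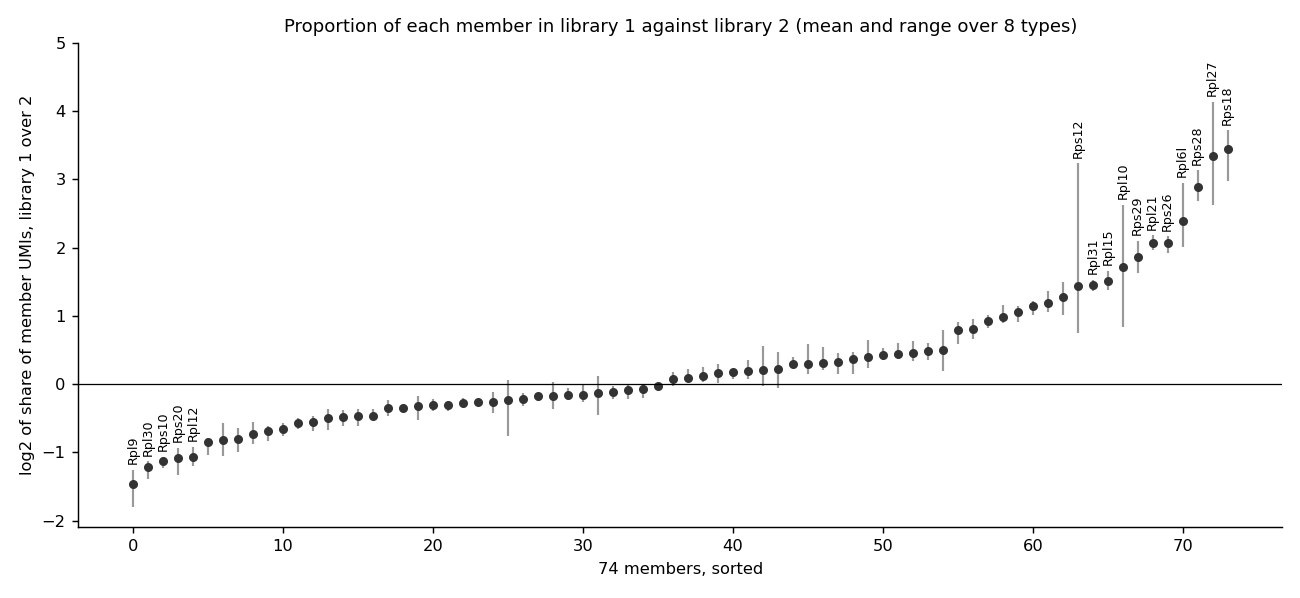
Log2 ratio of each member's share of the member UMIs in library 1 over library 2 (vertical axis), for 74 members in order of size (horizontal axis). Points are the mean and lines the range over 8 cell types; Rps18 lies at 3.44 and Rpl9 at -1.46, and ranges are narrow for most members outside the sparse Rps12, Rpl10 and Rpl27.

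The header of library 2 names software version 3.0.1, and that of library 1 names none. The part of the processing version, the animal or the library chemistry in these differences was not tested. The share of 50-base words that also occur in other annotated genes had a median of 18.8% in the 20 members beyond 2-fold and 22.6% in the 44 within 1.5-fold. The 44 members within 1.5-fold held 20.9% and 17.4% of UMIs in ISC, 9.80% and 9.29% in enterocytes, and 1.91% and 3.95% in Paneth cells. These members alone were thus again highest in ISC and lowest in Paneth cells in both libraries.

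The highest members by mean CPM over types and libraries were Rpl41 (5928 CPM), Rpl32 (5420), Rpl13 (4781), Rps14 (4767) and Rps19 (4717). The order differed between the libraries. Rpl41 led in library 1, with a mean of 8625 CPM over types, and was in place 21 in library 2, with 3232 CPM. In library 2 Rpl32 (5075 CPM), Rps24 (5025) and Rps20 (4972) were highest, the last pair named after their values were seen. UMIs count molecules, so no length correction was made. Apart from the 3 untested copies, the scarcest were Rps12 (10.2 CPM) and Rpl27 (26.7 CPM), although their proteins are core parts of every ribosome. In library 1 Rpl27 (49.3 CPM) was above Rps27 (36.02 CPM) and Rps12 (15.7 CPM), and in library 2 Rpl27 (4.15 CPM) was just below Rps12 (4.75 CPM). Of the 77 members, 74 share 50-base words with other annotated genes, with a median of 19.97% of words. For Rps12 and Rpl27 the shared part was 24.98% and 23.5%. Over the 77 members Spearman's rho between the shared percent and the mean CPM was -0.11. Whether copies elsewhere in the genome took or shared reads of Rps12, Rpl27, Rps27 and Rpl10 was not tested. Among 69 members with at least 100 CPM, the unscaled level was lowest in Paneth cells in both libraries for all 69, and highest in ISC in both for 60. On the TMM scale 67 of the 69 were highest in ISC, while 67 were lowest in EEC and 1 in Paneth cells, so the lowest type depended on scaling. On that scale their median range between types was 0.97. The widest ranges were in Rpl12 and Rps2 (both 1.25), Rpl3 (1.24), Rps27l (1.23) and Rpl6l (1.18). The narrowest were in Rpl41 (0.68), Rpl37a (0.71), Rps21 (0.73), Rps29 (0.74) and Rpl26 (0.75).

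Most paralog pairs were unequal in counted UMIs. Rps27l had a mean of 919 CPM and Rps27 of 34.6 CPM, and only Rps27l departed from the pool. Rps27 had 56.3 and 46.9 CPM in ISC and 23.0 and 27.2 CPM in enterocytes. Rpl3 had 2657 CPM and Rpl3l 4 UMIs in all, Rpl39 had 2789 CPM and Rpl39l 2 UMIs, and Rpl10 had 46.8 CPM and Rpl10l 8 UMIs. Rpl6 had 352 CPM and Rpl6l, which GENCODE lists as a processed pseudogene, 170 CPM.

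Other genes of ribosome production were read from 5 gene lists in the same comparison, ISC minus enterocyte, in which 22.5% of all genes were called higher and 28.8% lower. Of 10 ribosomal protein genes outside the symbol rule, 8 were higher in ISC and 1 lower, with a median of 0.64. Rpsa (0.87), Rplp0 (0.79) and Rpl22l1 (0.74) rose, and Fau, which encodes a ubiquitin-like protein fused to a small-subunit protein, fell by 0.83. Of 36 ribosome biogenesis genes, 30 were higher and 1 lower with a median of 1.72, beside 0.68 for the members and -0.08 for all genes. Gar1, of the pseudouridylation complex, had 109 and 99.2 CPM in ISC against 9.39 and 11.1 CPM in enterocytes (2.99, SE 0.21). Nop56 (2.88, SE 0.21) and Gnl3 (2.88, SE 0.20), nucleolar proteins, followed, and Eif6 fell by 0.51.

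Of 28 elongation and TOP-type translation genes, 20 were higher and 2 lower, with a median of 0.56. Hnrnpa1 (1.61), Eif3e (1.13) and Pabpc1 (1.12) rose, and Eif4g1 and Eif4g2 fell by 0.46 and 0.43. Of 14 genes of mTOR and Myc control, 5 were higher and 2 lower. Myc, a transcription factor that drives ribosome production, had 45.6 and 50.3 CPM in ISC against 3.76 and 2.61 CPM in enterocytes (3.69, SE 0.25). Mycn (1.80, SE 0.66) and Eif4ebp1 (0.93, SE 0.23) also rose, and Max and Rps6kb2 fell by 1.26 and 1.06. For the mitochondrial ribosome 16 of 76 genes were higher, a share near that of all genes, and 7 lower, with a median of 0.20. Mrpl19 (1.09), Mrps27 (0.96) and Mrps22 (0.85) rose, and Mrps36, Mrpl34 and Mrpl55 fell by 0.90, 0.59 and 0.65. Against the other types, 34 of 76 mitochondrial ribosome genes were higher in enterocytes and 3 lower, beside the 33.6% and 27.3% of all genes. By total UMIs these counts were 9 and 0, where 2842 of 11610 genes were higher and 2628 lower. By UMIs of other nuclear genes they were 6 and 0, where 2557 were higher and 2566 lower. With no replicate block they were 15 and 0, where 2820 were higher and 2079 lower. In these settings the share of the list that was higher lay below that of all genes. In the main fit 2 of the 36 biogenesis genes were higher in enterocytes and 31 lower. These lists were not tested against each other or against the members.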

How the data were processed

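Single-cell RNA libraries of small intestine cells were used, with the authors' deposited cell type for each annotated cell. The deposited values are raw UMI counts per gene and barcode, per the file headers and the whole numbers in them. The software version 3.0.1 stands in the header of library 2, with aligner and annotation not given in the sources used here. Build mm9 is listed in the submitters' processing notes without a data type. Barcodes without a cell type entered no comparison.

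UMIs were summed per library and type (at least 20 cells each) and tested with edgeR 4.0.16 (filterByExpr, TMM, quasi-likelihood, library as a block) in R 4.3.3, with Benjamini-Hochberg adjustment over all genes tested. DESeq2 1.42.0 served as an alternative. The script was tested on simulated data. All types of a library come from 1 suspension, and the library difference correlated between types at 0.235 to 0.706 over 11610 genes, so the block pairs the types. SEs were derived from the quasi-likelihood F. Shares are given per library and cover counting of UMIs only; depth ranged from 23947568 to 47974261 UMIs. RefSeq sequences were from GRCm38.p6, and shared words from GENCODE transcripts.

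Members named in the text are the 5 highest and 5 lowest in UMI share, the called members with the largest differences in each comparison (up to 6 each way for ISC minus enterocyte, 3 otherwise, same direction in both libraries), the 5 widest and 5 narrowest ranges at 100 CPM or more, and paralogs. Up to 3 called genes per direction were named for each list. Some genes that these rules choose are not reported here. Members beyond 2-fold between libraries were named after their values were seen. The members, gene lists and marker lists were chosen with earlier results of these data known. Alternatives were tried for scaling, filter, block, tool, cells and types.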

Additional observations from a re-analysis of the deposited data

Results flagged for a closer look

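Members were also present in barcodes to which the authors gave no cell type, which no comparison used. In library 1 they held 16.9% of UMIs in 65 such barcodes, with 13.1% of UMIs from mitochondrially encoded genes and a median of 11041 UMIs per barcode. In library 2 they held 9.60% in 6241 barcodes, with 35.9% mitochondrial UMIs and a median of 1738 UMIs. In annotated cells the member share was 17.5% and 15.8%. The library 2 value moved with the mitochondrial share: it was 15.0% with mitochondrial UMIs left out of the total, 14.8% in barcodes under 20% mitochondrial UMIs and 17.5% in the 1595 barcodes under 10%. In the 360 barcodes with at least 10000 UMIs it was 11.2%. The limits of 10% and 10000 UMIs were added after seeing the data.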

How the results depend on the processing

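The values rest on 2 libraries, so leaving one out gives a value and no test. The member share by type without either replicate ran from 25.2% to 31.2% in ISC, 20.3% to 27.5% in progenitors, 18.4% to 26.7% in secretory progenitors, 14.8% to 20.2% in goblet cells, 15.0% to 23.4% in EEC, 18.1% to 21.1% in tuft cells, 13.6% to 15.1% in enterocytes and 2.89% to 5.85% in Paneth cells. The Paneth mean of 4.37% became 2.28% as the median over cells. Without the 10 other genes of highest share in any type it became 12.2%, a rise fixed by that choice of genes. The enterocyte mean of 14.3% became 15.9% without mitochondrial UMIs and 16.2% in cells under 10% mitochondrial UMIs, a limit added after seeing the data. The limits of 1000 UMIs and of 20% mitochondrial UMIs removed no cell, and both gene lists are identical, so these 3 alternatives test nothing.

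Called members changed with the model. With no replicate block 2 of 74 members passed across types, where 5889 of 11610 genes did. In ISC 4 were higher, where 582 of 11610 genes were. For ISC minus Paneth 2 were higher, where 582 genes were, and for ISC minus enterocyte 3 were, where 14.4% of genes were. These ISC counts were near or below the share of all genes. Progenitor, goblet, Paneth, EEC, tuft and enterocyte gave 0. Of the lists, the ribosomal proteins outside the rule gave 0, elongation 9 and the mitochondrial ribosome 6. The block is therefore needed for nearly all calls. By library size without TMM 41 were higher for ISC minus enterocyte, where 22.9% of all genes were. In Paneth 74 were lower, where 85.2% of genes were. In progenitors 7 were higher, where 3729 of 11610 genes were, and in goblet 1 was, where 1354 were. EEC, tuft and enterocyte gave 0, and the same lists 5, 14 and 12. Scaled by UMIs of other nuclear genes 74 were lower in Paneth, where 10208 of 11610 genes were. In progenitors 37 were higher, where 41.5% of genes were, and goblet, EEC, tuft and enterocyte gave 0. DESeq2 called 41 in enterocytes, where 6776 of 11610 genes were, 2 in Paneth cells, where 2618 were, and 0 in progenitors. In tuft cells 6 were lower, where 334 genes were, and for progenitor minus ISC 24 were, where 3.06% of genes were. With no filter on low counts 6 were lower in tuft, where 595 of 17753 genes were, and 1 for progenitor minus ISC, where 278 were. Types with at least 50 cells, which leaves out EEC and tuft, gave 45 lower in enterocytes, where 30.2% of genes were. In Paneth cells 9 passed, where 3445 of 11402 genes did. In goblet cells 1 was higher, where 2291 genes were, and in progenitors 1 was lower, where 1768 were. For progenitor minus ISC 4 were lower, where 311 genes were.

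After seeing the data 3 more settings were added. Cells under 10% mitochondrial UMIs gave 30 higher for ISC minus Paneth, where 1212 of 11406 genes were. In Paneth 2 passed, where 2598 genes did, in tuft 6 were lower, where 482 were, and enterocyte and progenitor gave 0. Without Paneth cells 11 were lower in tuft, where 584 of 10575 genes were, and 2 higher in progenitor, where 1984 were. For progenitor minus ISC 3 were lower, where 269 genes were. Scaled to the summed members, 3 passed across types, where 80% of genes did, and 4 for ISC minus enterocyte, where 57.6% did. ISC gave 4, where 5036 of 11610 genes passed, ISC minus Paneth 3, where 2938 did, and enterocyte 3, where 6673 did. EEC, goblet and Paneth gave 1 each, where 3325, 3072 and 2209 genes passed, and tuft and progenitor 0. The low counts under this last scaling follow largely from the scaling itself. The cause of the other changes was not tested.

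Directions turned as follows, by library size and by UMIs of other nuclear genes. The EEC median became 0.22 and 0.20 and the tuft median 0.26 and 0.29, and both were near 0 scaled to the summed members (0.020 and 0.0052). Rps27l became 0.14 and 0.39 for ISC minus enterocyte, -1.56 and -1.92 for Paneth, and 0.11 and 0.14 for tuft. In EEC Rpl12 became 0.066 and 0.051 and Rps2 0.062 and 0.046; in tuft Rps2 became 0.027 and 0.053 and Rpl38 0.13 and 0.15. Rpl10 for ISC minus enterocyte was -0.68 without replicate 1 and 0.41 without replicate 2. The cause was not tested. Of 394 alternative values for 37 named differences, 312 kept direction and, where a test existed, side of the threshold. Another 62 missed it, 5 newly passed and 15 turned. The 394 include values without either replicate, which have a direction and no test. Called members were named only where both libraries agreed, so for them that direction was fixed in advance. The limit on total UMIs, which removed no cell, is also included and repeats the main fit. The count of 312 is raised by both kinds of value.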
